A study of Mus musculus with 2 samples.

Results

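The genes described here encode the machinery that carries the interleukin-4 signal, together with CD23, a gene that this signal is known to induce in B cells. There were 8 of them among the 31053 genes in the tables, chosen by symbol: Il4ra, Il13ra1, Il2rg, Jak1, Jak3, Stat6, Socs1 and Fcer2a. They were read in 2 single-cell libraries of the mediastinal lymph node, the node that drains the lung, from C57/B6J mice of WT genotype. All mice had ovalbumin (OVA) asthma: 50 μg of OVA with alum was injected into the peritoneum on days 0 and 7, OVA was given intranasally on days 14 to 16, and nodes were taken on day 17. The w/o butyrate library (sample label OVA) came from asthmatic mice, and the w/ butyrate library (sample label C4) from asthmatic mice that had also received butyrate, a short-chain fatty acid made by gut bacteria. The cells of 4 mice were pooled in each library, the age of the mice was given only as a range for the whole study, and there was no library from mice without asthma. The question was how far the IL-4 receptor genes and CD23 differed between cell types and between mice with and without butyrate.

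IL-4 acts through a receptor built on the alpha chain encoded by Il4ra. On lymphocytes this chain pairs with the common gamma chain (Il2rg) to form the type I receptor, and on many myeloid and non-blood cells it pairs with the chain encoded by Il13ra1 to form the type II receptor, which also binds IL-13. The kinases JAK1 and JAK3, bound to the alpha and the gamma chain, then phosphorylate STAT6, and SOCS1 is an inhibitor of JAK kinases. CD23, the product of Fcer2a, is the low-affinity receptor for IgE on mature B cells. In B cells IL-4 also directs switching to IgE, the antibody class behind allergic asthma.

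After removal of low-quality cells and doublets, 8774 and 8013 cells remained in the w/o and w/ butyrate libraries, with medians of 5075 and 5649 UMIs (unique molecular identifiers, each standing for 1 captured RNA molecule). Cells were sorted into classes by UMIs of Cd79a, Cd3e, Cd4, Cd8a and Lyz2. There were 4130 and 3883 B cells, 1044 and 934 CD4+ T cells, 1608 and 1648 CD8+ T cells, 1143 and 899 Cd4-Cd8a- T cells (Cd3e without Cd4 or Cd8a UMIs, which includes T cells whose coreceptor was missed), and 36 and 30 myeloid cells, and 813 and 619 cells had no class. The B, T and myeloid marker lists led in their own classes in both libraries: the summed level of 6 B cell markers was 6636 and 7032 CPM (UMIs of the gene scaled to 1000000 UMIs of the class) in B cells and at most 72.8 CPM in every other class. Each list holds the gene that sorts its class (Cd79a, Cd3e or Lyz2), so part of this lead was set by the sorting. Cd79b, which was not used to sort, stood at 1655 and 1824 CPM in B cells. Its level in the other classes was 0.780% to 2.10% of that. In the myeloid class the dendritic markers Flt3, Zbtb46, Xcr1, Clec9a and Siglech were all at 0 w/o butyrate and summed to 82.5 CPM w/ butyrate. The median of a list of 18 interferon-induced genes was lower w/ butyrate in every class, taken over those with at least 50 UMIs. The median log2 ratio was -0.73 in B cells (17 genes, 16 of them below 0) and -1.02 in CD4+ T cells (17). It was -0.87 in CD8+ T cells (18), -1.15 in Cd4-Cd8a- T cells (18) and -1.47 in myeloid cells (only 5). The part of this state in the results below was not tested, beyond the values given for cells with few interferon UMIs. Only 22 barcodes of kept cells occurred in both libraries.

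Each condition has 1 library, so no difference could be checked against replicates. Differences are therefore described by size, intervals are 95% and cover counting error only, and no p-value is given. A gene is called higher or lower here when its summed CPM differed by more than 0.32 on the log2 scale, which was counted for every gene with at least 50 UMIs in a class over both libraries. Pooled nodes and single libraries also mean that butyrate and the library cannot be told apart.

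The start regions of both genes that passed this fold in B cells are shown first, because STAT6 is known to bind palindromes of the form TTCNNNNGAA. Fcer2a (ENSMUSG00000005540) lies on the minus strand at chr8:3681737-3694175 of GRCm38, and Il4ra (ENSMUSG00000030748) on the plus strand at chr7:125552120-125579474. The RefSeq table (GRCm38.p6) gives windows from 250 bases before to 50 after a gene start, and all 8 genes had at least 1, with 10 windows in all because Fcer2a has 3 starts. Capitals mark TTCNNNNGAA, a motif that reads the same on both strands.
Fcer2a, upstream start, chr8:3694125-3694424, minus strand: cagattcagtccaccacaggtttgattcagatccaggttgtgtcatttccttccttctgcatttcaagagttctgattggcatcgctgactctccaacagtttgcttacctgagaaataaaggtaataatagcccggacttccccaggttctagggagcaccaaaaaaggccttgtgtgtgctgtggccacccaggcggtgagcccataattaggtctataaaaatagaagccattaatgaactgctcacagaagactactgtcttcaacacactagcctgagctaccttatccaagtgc
Fcer2a, second start, chr8:3690812-3691111, minus strand: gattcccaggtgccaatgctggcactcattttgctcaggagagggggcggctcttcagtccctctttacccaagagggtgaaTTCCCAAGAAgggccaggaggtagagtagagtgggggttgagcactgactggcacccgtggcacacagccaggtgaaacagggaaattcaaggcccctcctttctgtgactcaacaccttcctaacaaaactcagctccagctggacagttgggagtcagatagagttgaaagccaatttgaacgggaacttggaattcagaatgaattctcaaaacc
Il4ra, chr7:125552021-125552320, plus strand: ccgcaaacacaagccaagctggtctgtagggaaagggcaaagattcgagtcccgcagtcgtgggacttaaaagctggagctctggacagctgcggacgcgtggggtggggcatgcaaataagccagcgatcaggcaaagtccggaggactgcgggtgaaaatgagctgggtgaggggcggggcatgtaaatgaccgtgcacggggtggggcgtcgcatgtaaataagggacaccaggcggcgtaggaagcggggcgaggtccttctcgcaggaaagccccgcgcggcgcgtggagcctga
Of the 10 windows, 1 held TTCNNNNGAA: that of the second Fcer2a start, where it begins at base 83 of the window, shown in capitals above. The same letters occur in 2284 of 32851 windows of this length (6.95%). The related spacing TTCNNNGAA, which other STAT proteins prefer, was in none of the 10 windows and in 8.30% of all windows. A match describes the letters only, and the 3′ tags counted here do not show which start was used.

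**Figure D1:**
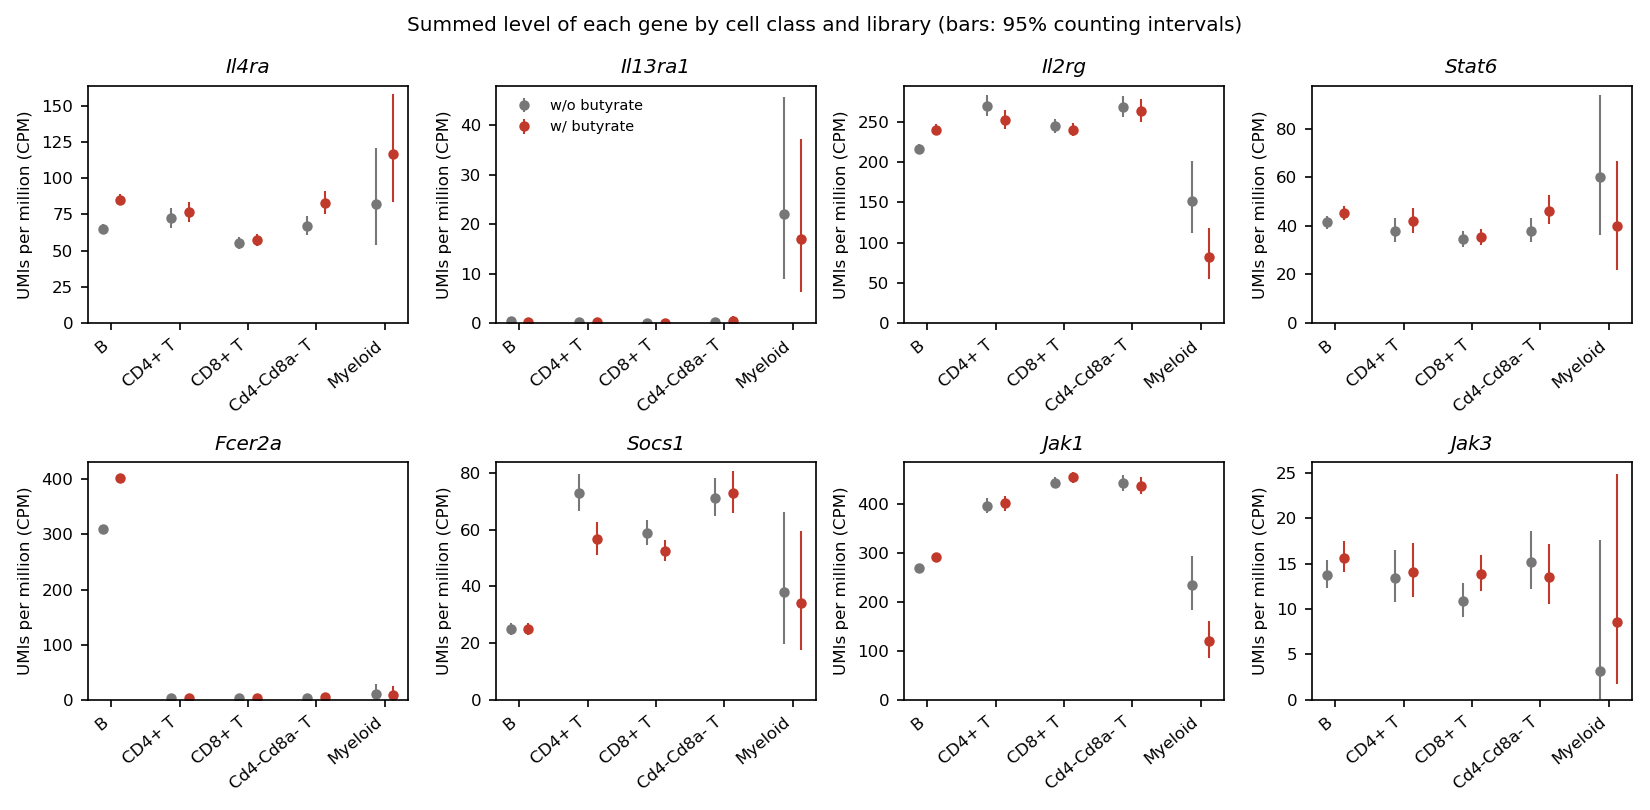
Summed level (CPM, linear axes from 0) of each of the 8 genes in 5 cell classes of the w/o butyrate (grey) and w/ butyrate (red) libraries, with bars for 95% counting intervals. Fcer2a stood at 310 and 402 CPM in B cells and at 9.49 CPM or less in every other class. Among the 5 classes Il13ra1 reached 22.2 and 17.1 CPM in myeloid cells and at most 0.401 CPM in the lymphocyte classes.

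CD23 was a B cell gene in both libraries and was higher w/ butyrate. In B cells Fcer2a had 6961 UMIs w/o butyrate and 8604 w/ butyrate, which is 310 and 402 CPM. The log2 ratio was 0.37 (interval 0.33 to 0.42). The share of B cells with at least 1 Fcer2a UMI was 70.5% and 77.1%, and 45.1% and 52.3% after each cell was thinned to 2000 UMIs, so the w/ butyrate library was higher at equal depth too. In the thinned cells 54.9% and 47.7% of B cells had no Fcer2a UMI, 11.2% and 13.97% had 2 and 3.77% and 5.56% had 3. The shift was therefore spread over the whole range of counts per cell, and no single cell held more than 0.201% of the UMIs.

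**Figure D2:**
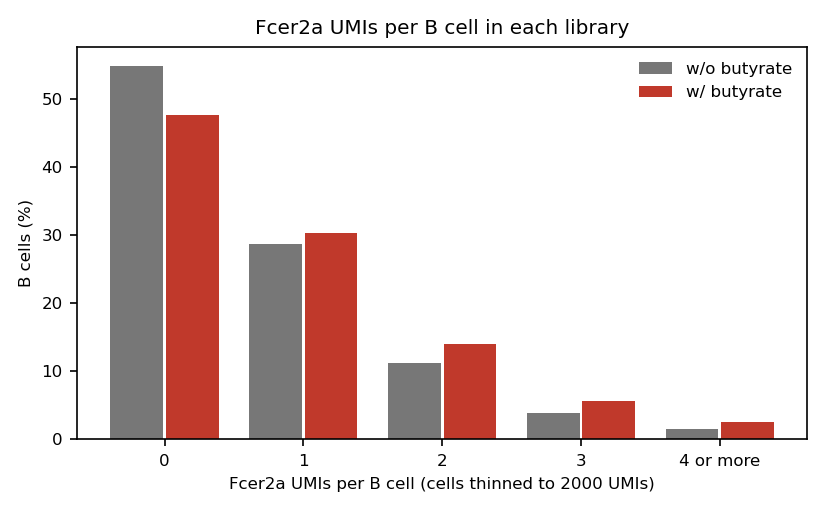
Share of B cells (%, axis from 0) by number of Fcer2a UMIs per cell after thinning each cell to 2000 UMIs, w/o butyrate (grey) and w/ butyrate (red). Cells with no Fcer2a UMI made up 54.9% and 47.7%, and every class of 1 or more UMIs was larger w/ butyrate.

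Fcer2a UMIs were rare in T cells, as were those of other B cell genes. CD4+ T cells stood at 2.89 and 3.18 CPM, CD8+ T cells at 3.07 and 2.78 CPM and Cd4-Cd8a- T cells at 3.29 and 4.98 CPM, and 1.66% to 2.89% of these cells had a UMI although their median depths (4894 to 7891 UMIs) were above those of B cells (4402 and 4608). These levels were 0.692% to 1.24% of the B cell level, beside 0.984% to 1.69% for the B cell gene Cd79b. For Ms4a1, which encodes CD20 of B cells, the share was 0.316% to 0.779%. The source of these UMIs was not tested.

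Among the B cell groups with at least 20 cells in each library, Fcer2a was highest in Ighd+ cells and lowest in switched cells. Ighd+ B cells, which carry IgD and no abundant switched isotype, numbered 3882 and 3713 and stood at 342 and 425 CPM, against 95.7 and 121 CPM in the other B cells. Switched B cells were those whose IgG, IgA and IgE UMIs exceeded IgM plus IgD. Cells with plasma cell genes were not kept out of this group, and their part in its levels was not tested. Switched B cells stood at 30.2 and 75.05 CPM. Their log2 difference from other B cells was -3.45 (-3.91 to -3.03) w/o and -2.45 (-2.94 to -2.00) w/ butyrate, and 10.1% and 16.7% had a UMI after thinning against 45.7% and 52.6% of the rest. Cycling B cells (Mki67 or Top2a) were at 134 and 228 CPM, and B cells with germinal center genes at 101 and 241 CPM. The CPM of all 3 of these groups was below that of other B cells in both libraries beyond counting error. After thinning, 33.3% and 39.5% of cycling B cells had a UMI against 46.0% and 53.0% of the rest. For B cells with germinal center genes the shares were 27.5% and 46.2% against 45.4% and 52.4%. No order is therefore read for them w/ butyrate.

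The w/ butyrate library was higher for Fcer2a in each of the 5 B cell groups with at least 20 cells. A cell can belong to more than 1 of these groups, so they are not separate checks. The log2 ratio was 0.31 (0.27 to 0.36) in Ighd+ B cells, 0.43 (0.34 to 0.51) in Myc+ B cells, 0.77 (0.57 to 0.97) in cycling B cells and 1.31 (0.66 to 1.96) in switched B cells. In B cells with germinal center genes the level was 2.38-fold higher (log2 interval 0.90 to 1.60). The value for switched B cells rests on 45 and 40 UMIs in 69 and 30 cells. The make-up of B cells moved with this result: w/o butyrate there were more switched (69 against 30), cycling (277 against 186) and plasma-gene (34 against 11) cells, and switched cells had medians of 21774 and 12671 UMIs, which weigh on a summed CPM. Among Ighd+ B cells without cycling, germinal center or plasma cell genes (3665 and 3516 cells), the log2 ratio was 0.30 (0.25 to 0.34), which is below the fold. The 2 genes with the levels most like Fcer2a over 17 cell groups in both libraries (34 values that share cells and depth) were Bank1, a B cell adaptor (Pearson r = 0.993), and the unnamed gene model Gm31243 (0.992), followed by Scd1, a fatty acid desaturase (0.990).

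**Figure D3:**
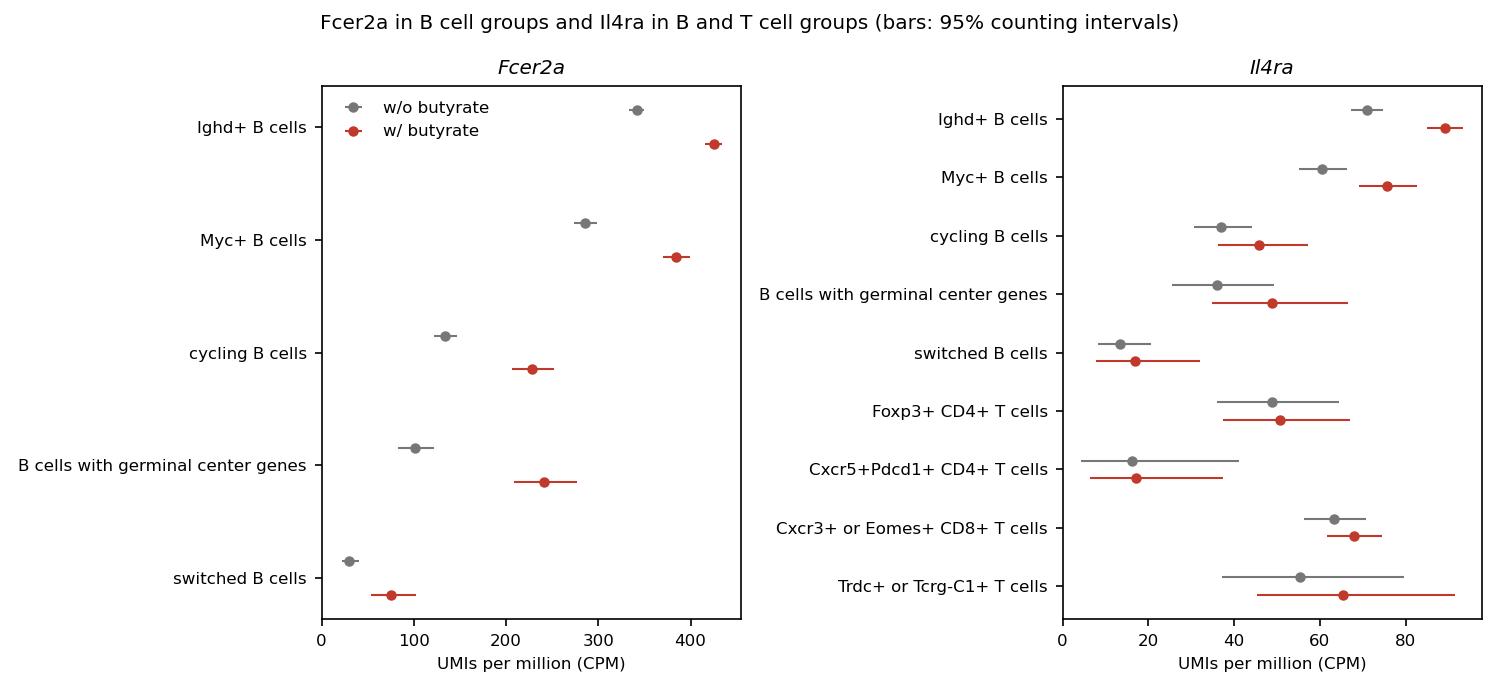
Summed level (CPM, linear axes from 0) of Fcer2a in 5 groups of B cells (left) and of Il4ra in 9 groups of B and T cells (right), w/o butyrate (grey) and w/ butyrate (red), with 95% counting intervals. Fcer2a ranged from 342 and 425 CPM in Ighd+ B cells to 30.2 and 75.05 CPM in switched B cells, and Il4ra was lowest in switched B cells (13.4 and 16.9 CPM) and Cxcr5+Pdcd1+ CD4+ T cells (16.1 and 17.2 CPM).

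Il4ra, the chain shared by both receptor types, was present in all classes. In the w/o butyrate library it stood at 82.3 CPM in myeloid cells, 72.3 in CD4+ T cells, 67.0 in Cd4-Cd8a- T cells, 65.2 in B cells and 55.3 in CD8+ T cells. In the w/ butyrate library the values were 117, 76.4, 83.0, 85.3 and 57.2 CPM in the same order of classes. CD8+ T cells were below B cells, CD4+ T cells and Cd4-Cd8a- T cells in both libraries beyond counting error, whereas B cells and Cd4-Cd8a- T cells did not differ beyond it in either. The myeloid values rest on 26 and 41 UMIs, and 1 cell held 43.9% of the latter.

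In summed CPM, B cells had the clearest difference in Il4ra between the libraries. They held 1462 and 1826 UMIs, a log2 ratio of 0.39 (0.29 to 0.49), and 28.1% and 34.4% of the cells had a UMI (13.7% and 16.1% after thinning). Ighd+ B cells gave 70.9 and 89.1 CPM (0.33, 0.23 to 0.43), and without cycling, germinal center or plasma cell genes the ratio was 0.35 (0.25 to 0.46). Cd4-Cd8a- T cells had a log2 ratio of 0.31 (0.11 to 0.51), just under the fold, and CD4+ and CD8+ T cells of 0.08 (-0.10 to 0.26) and 0.05 (-0.10 to 0.20). The ratios in CD4+ and CD8+ T cells thus lay below that in B cells, with intervals that did not overlap that of B cells. Over the processing alternatives the ratio in CD4+ T cells ranged from -0.01 to 0.27. The difference between classes was not tested across libraries. Restricted to B cells with fewer than 5 interferon UMIs, Il4ra gave 0.36 and Fcer2a 0.35.

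Il4ra was lower in switched B cells and in Cxcr5+Pdcd1+ CD4+ T cells than in the rest of their class. Switched B cells stood at 13.4 and 16.9 CPM against 68.9 and 87.0 in other B cells, a log2 difference of -2.36 and -2.37. After thinning, 4.35% and 3.33% of them had a UMI against 13.9% and 16.2%. Their medians were 21774 and 12671 UMIs against 4374 and 4597, and Il2rg, Jak1 and Stat6 were lower in them too. CPM and thinned shares are both relative to all UMIs of a cell. The part of this depth in the difference was not tested. Switched B cells may include cells with plasma cell genes, whose part was not tested either. Cxcr5+Pdcd1+ CD4+ T cells, which carry the receptor pattern of follicular helper cells, stood at 16.1 and 17.2 CPM against 74.5 and 79.7, a log2 difference of -2.21 in each library. That group has 24 and 23 cells with 4 and 6 Il4ra UMIs, and its intervals (-4.09 to -0.84 and -3.67 to -1.08) lie below 0. Foxp3+ CD4+ T cells, the regulatory lineage, had 48.8 and 50.6 CPM against 76.5 and 80.8 in the rest, but at 2000 UMIs per cell their share with a UMI was 13.7% and 16.7% against 13.2% and 15.96%, so no order is read for them. The same holds for B cells with germinal center genes, at 36.0 and 48.9 CPM but with 18.8% and 17.9% of thinned cells positive against 13.7% and 16.1%. Among CD8+ T cells the direction differed, since cells with Cxcr3 or Eomes, genes of memory and effector CD8+ T cells, had more Il4ra than the rest: 63.2 against 50.2 CPM and 67.9 against 48.2 CPM. The genes with levels most like Il4ra were Ikbkb, a kinase of the NF-κB pathway (r = 0.849), Kdm7a, a histone demethylase (0.844), and Add3, a cytoskeletal protein (0.814).

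The partner chain decides the receptor type, and Il13ra1 was close to absent from lymphocytes. It had 9 and 6 UMIs in all B cells, 1 and 1 in CD4+ T cells, 1 and 2 in Cd4-Cd8a- T cells and none in CD8+ T cells. For CD8+ T cells, 0 of 1608 and 0 of 1648 cells allow shares of up to 0.187% and 0.182% with a UMI, taking 3 cells of the total as the limit for a count of 0, which covers counting error only. In myeloid cells 7 and 6 UMIs gave 22.2 and 17.1 CPM and a share of 16.7% and 10.0% of cells. Both chains of the type II receptor were seen in the same cell in 3 of 36 and 1 of 30 myeloid cells (8.33% and 3.33%), in 2 and 1 B cells, and in no CD4+ T cell of 1044 and 934, which allows up to 0.287% and 0.321% by the same limit.

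Il2rg, the common gamma chain also used by the receptors for IL-2, IL-7, IL-9, IL-15 and IL-21, was found in every lymphocyte class. It stood at 217 and 240 CPM in B cells (log2 ratio 0.15, 0.09 to 0.21), 270 and 253 in CD4+ T cells, 245 and 240 in CD8+ T cells and 269 and 264 in Cd4-Cd8a- T cells. Myeloid cells were lower than each lymphocyte class in both libraries, at 152 and 82.5 CPM. Switched B cells had 36.9 and 76.9 CPM against 229 and 245 in other B cells, and B cells with germinal center genes 68.2 and 142 against 224 and 244. Trdc+ or Tcrg-C1+ T cells, which carry genes of the gamma-delta T cell receptor, had a higher CPM than other Cd4-Cd8a- T cells, with 325 and 326 against 264 and 257. That group has 105 and 92 cells. After thinning, 43.8% against 41.1% had a UMI w/o butyrate and 45.7% against 41.1% w/ butyrate, so no order is read for them. Gm20489 shares exon sequence with Il2rg on the same strand, and Insl3 with Jak3, so molecules from such stretches cannot be assigned to 1 gene.

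Cells with UMIs of both type I chains were more frequent w/ butyrate among B cells. The share with both depends on the share with each chain alone, which was also higher w/ butyrate in B cells. These were 28.1% and 34.4% for Il4ra and 65.8% and 69.5% for Il2rg. Pairing beyond these shares was not tested. The share with both was 18.6% (767 of 4130, exact interval 17.4% to 19.8%) against 24.8% (963 of 3883, 23.4% to 26.2%), and 4.89% against 6.88% after thinning. It was 24.1% and 27.4% in CD4+ T cells (4.23% and 6.34% thinned), 20.1% and 24.7% in Cd4-Cd8a- T cells (5.39% and 6.31%) and 33.3% and 23.3% in myeloid cells (3.45% and 4.55%, which is 1 of 29 and 1 of 22 cells). In CD8+ T cells 25.6% and 29.5% became 3.92% and 3.89% at equal depth, so the libraries were level once cells were compared at 1 depth (unthinned medians 6784 and 7891 UMIs). UMIs of all 5 genes of the type I pathway (Il4ra, Il2rg, Jak1, Jak3 and Stat6) were seen together in 14 and 20 B cells, which is 0.339% and 0.515%.

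**Figure D4:**
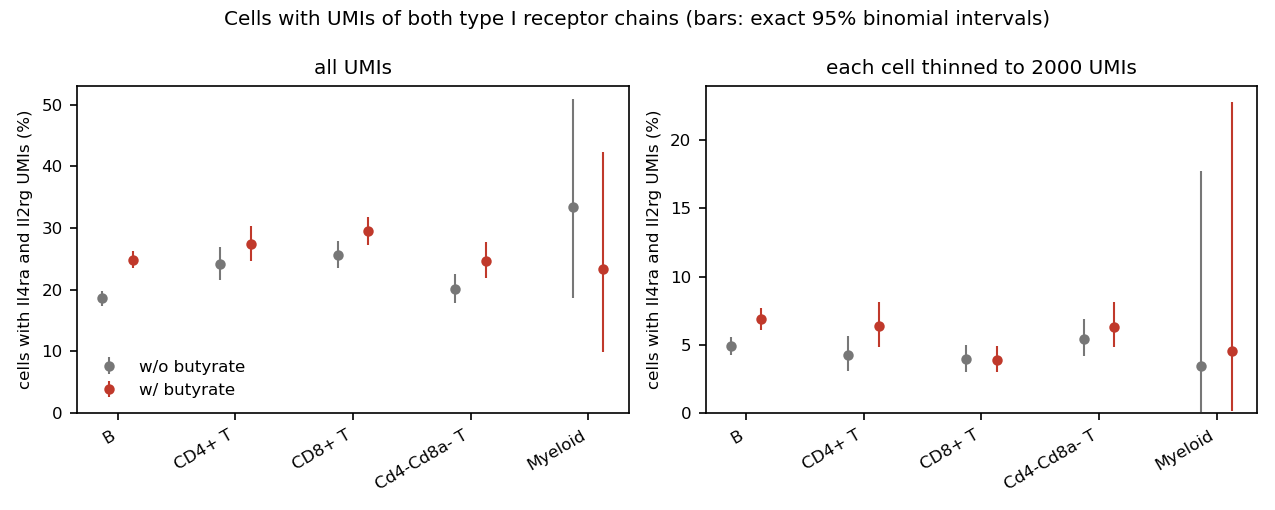
Share of cells (%, axes from 0) with UMIs of both Il4ra and Il2rg in 5 classes, with all UMIs (left) and with each cell thinned to 2000 UMIs (right), w/o butyrate (grey) and w/ butyrate (red), with exact 95% binomial intervals. In B cells the share was 18.6% and 24.8%, and 4.89% and 6.88% after thinning, while in CD8+ T cells it was 3.92% and 3.89% after thinning. Pairing beyond the share of each chain alone was not tested.

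Jak1, the kinase bound to the alpha chain, stood at 269 and 291 CPM in B cells and was higher in every T cell class in both libraries, at 397 and 403 CPM in CD4+, 445 and 456 in CD8+ and 444 and 439 in Cd4-Cd8a- T cells. Its log2 ratio between libraries was 0.12 in B cells and within 0.04 of 0 in the T cell classes. Trdc+ or Tcrg-C1+ T cells had 676 and 511 CPM against 422 and 431 in other Cd4-Cd8a- T cells. After thinning, 72.4% against 54.0% of these cells had a UMI w/o butyrate and 55.4% against 57.4% w/ butyrate, so no order is read w/ butyrate. Like Il4ra, Jak1 had a lower CPM in Cxcr5+Pdcd1+ CD4+ T cells (209 and 195) than in the other CD4+ T cells (404 and 414). That group has 24 and 23 cells. After thinning, 26.1% of them had a UMI w/ butyrate against 56.4% of the rest. The share w/o butyrate was only slightly below the 56.4% of the rest, so no order is read w/o butyrate. Jak3, the kinase bound to the gamma chain, had few UMIs, with 13.8 and 15.7 CPM in B cells, 13.4 and 14.1 in CD4+ and 15.2 and 13.6 in Cd4-Cd8a- T cells. CD8+ T cells had 10.9 and 13.9 CPM, a log2 ratio of 0.35 (0.03 to 0.68) from 131 and 195 UMIs, which fell to 0.30 under stricter class rules.

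Stat6, the transcription factor of the pathway, was even across lymphocytes. It stood at 41.4 and 45.2 CPM in B cells, 38.04 and 42.0 in CD4+, 34.4 and 35.4 in CD8+ and 38.1 and 46.3 in Cd4-Cd8a- T cells. CD8+ T cells were below B cells in both libraries beyond counting error, and no other lymphocyte pair was. Among these 4 classes the largest log2 ratio between libraries was 0.28 (0.02 to 0.55), in Cd4-Cd8a- T cells. Switched B cells had 12.1 and 15.01 CPM against 43.5 and 46.0 in other B cells.

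Socs1, the inhibitor, was lower in B cells than in T cells in both libraries, and was lower w/ butyrate in CD4+ T cells. B cells had 24.9 and 24.98 CPM, against 72.9 and 56.7 in CD4+, 59.0 and 52.6 in CD8+ and 71.3 and 72.9 in Cd4-Cd8a- T cells. The log2 ratio in CD4+ T cells was -0.36 (-0.56 to -0.16), from 479 and 374 UMIs, but 12.5% and 12.3% of thinned cells had a UMI and the ratio after thinning was -0.17 (-0.51 to 0.17). Socs1 is a known target of interferons, and beside it the median log2 ratio of the interferon list in CD4+ T cells was -1.02. Among CD4+ T cells with fewer than 5 interferon UMIs the ratio of Socs1 was -0.44.

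**Figure D5:**
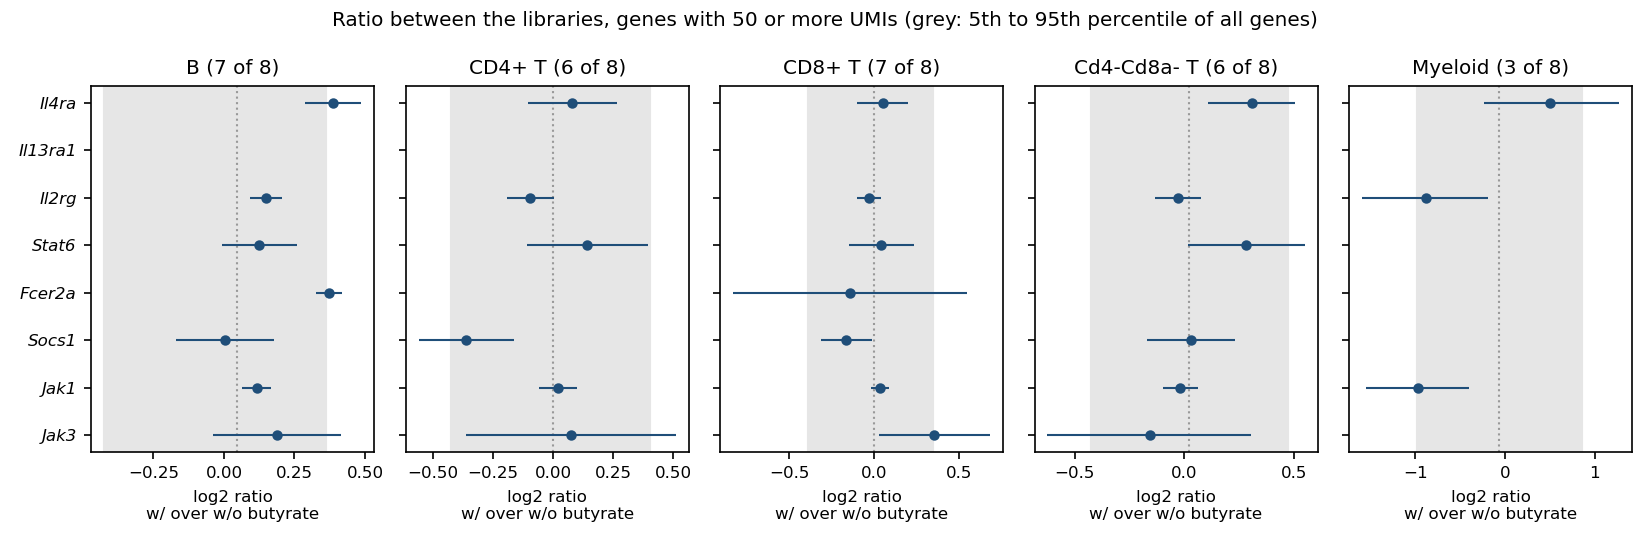
Log2 ratio of summed CPM, w/ over w/o butyrate, for the genes with at least 50 UMIs in each class (points, with 95% counting intervals), over the 5th to 95th percentile (grey) and median (dotted line) of all genes with that many UMIs. In B cells all 7 genes lay above 0, as did the median of all genes (0.05), and the intervals of Stat6, Socs1 and Jak3 included 0. Il4ra (0.39) and Fcer2a (0.37) lay beyond the 95th percentile (0.36).

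Counted over the 8 genes, B cells had 7 with enough UMIs, of which 2 (Il4ra and Fcer2a) were higher w/ butyrate, beside 6.61% of all 10376 genes, and 0 were lower, beside 6.97%. Their median log2 ratio was 0.15, against 0.05 for all genes. CD4+ T cells had 6, with 0 higher (8.05% of all genes) and 1 lower (Socs1; 8.67%). CD8+ T cells had 7, among them Fcer2a at 3.07 and 2.78 CPM, with 1 higher (Jak3; 5.99%) and 0 lower (7.23%). Cd4-Cd8a- T cells had 6, with 0 higher (10.6%) and 0 lower (8.11%). Myeloid cells had 3, with 1 higher (Il4ra; 19.1%) and 2 lower (Il2rg and Jak1; 29.6%). In this class, with 36 and 30 cells, the shares of all genes past the fold were the highest of the 5 classes, and after thinning Jak1 changed from -0.97 to -0.19.

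Other genes of the pathway were read from lists. Among all genes, 6.61% were higher and 6.97% lower in B cells. These shares were 8.05% and 8.67% in CD4+ and 5.99% and 7.23% in CD8+ T cells. The lists are too short for their counts to be told apart from these shares. Of 9 adaptors and inhibitors, 1 of 8 measured was higher and 0 lower w/ butyrate in B cells, 2 of 8 higher and 1 lower in CD4+ T cells, and 0 of 7 past the fold in CD8+ T cells. The cytokine-induced inhibitor Socs3 was higher w/ butyrate in B cells (42.5 and 60.3 CPM, log2 ratio 0.51) and in CD4+ T cells (52.8 and 69.4 CPM, 0.39), the opposite direction to Socs1 in the latter. Ptpn6, the phosphatase SHP-1, stood at 345 and 390 CPM in B cells (0.18). Irs2, an adaptor bound by the alpha chain, was lower in CD4+ T cells, with 8.37 and 3.64 CPM from 55 and 24 UMIs, and was picked out after its values were seen. Of 6 other kinases and STATs, all measured, 0 were higher and 1 was lower w/ butyrate in B cells. Of 7 receptor chains that share or resemble these subunits, 1 of 6 measured was higher and 1 lower in B cells, 0 of 5 higher and 1 lower in CD4+ and 0 of 5 higher and 2 lower in CD8+ T cells. Il7r, the IL-7 receptor chain, was lower w/ butyrate in CD4+ (509 and 405 CPM) and CD8+ (598 and 462 CPM) T cells, and in B cells Il21r stood at 112 and 126 CPM (0.18). Of the ligands Il4 and Il13, only Il4 in CD4+ T cells reached 50 UMIs. It had 74 and 104 UMIs there, and 1 cell held 45.2% of the latter.

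Of 7 genes that IL-4 is known to raise in B cells, 1 was higher and 1 lower w/ butyrate in B cells, beside 6.61% and 6.97% of all genes. Ratios were below 0 for 4 of the 7, and the list median was -0.06 beside 0.05 for all genes. Il4i1, a secreted amino acid oxidase, had 136 and 197 CPM (log2 ratio 0.54, 0.47 to 0.61) and was detected in 33.8% and 42.3% of B cells. The MHC class II genes H2-Aa (4632 and 5364 CPM) and H2-Ab1 (3981 and 4645 CPM) had log2 ratios of 0.21 and 0.22, under the fold. The costimulatory gene Cd86 did not differ beyond counting error, at 53.2 and 51.2 CPM. Adam10 and Cr2 were close to even. Adam10, the protease that sheds CD23 from the cell surface, had 31.7 and 35.6 CPM (0.17). Cr2, a complement receptor, had 189 and 199 CPM (0.07).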

How the data were processed

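Single-cell 3′ RNA libraries (10x Genomics, kit version 3) were counted by the authors with Cell Ranger 6.0.1 on mm10, per the submitters' processing notes, and the deposited values are raw UMI counts per gene and cell (59176459 and 58381292 UMIs in 9681 and 8932 cells). Whether counting used strand is not given in the sources used here. Of the 31053 gene identifiers, 30934 are in GENCODE M21, from which positions were taken. The limits stated in the methods of the study were applied: at most 10% of UMIs mitochondrial and at least 200 genes per cell, which took out 186 and 327 cells. Doublets were then taken as the top-ranked cells by Scrublet score (scanpy 1.11.5), 0.8% for each 1000 cells of a library, or 721 and 592 cells. B cells had at least 2 Cd79a UMIs and no Cd3e, T cells at least 1 Cd3e UMI, and myeloid cells at least 3 Lyz2 UMIs and no Cd3e. T and myeloid cells had at most 1 Cd79a UMI, and B and T cells at most 2 Lyz2 UMIs. UMIs were summed per class and library and scaled to CPM. Ratios have exact conditional binomial intervals and shares exact binomial intervals. Thinning drew 2000 UMIs per cell and left out 101 and 57 shallower cells. The ratio and its interval were tested on simulated data. Likeness is Pearson's r of log2(CPM + 10) among genes with at least 100 CPM in 1 group. All 8 genes were named, with at most 4 genes of each list. Genes and lists were chosen with earlier results of these data known. Alternatives varied the doublet step, filters, class rules, depth, scaling, pseudocount and UMI minimum. scipy 1.17.1 was used under Python 3.11.15. Some genes and cell groups of these lists are not reported here.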

Additional observations from a re-analysis of the deposited data

How the results depend on the processing

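Over 13 alternatives, 596 of 652 recomputed values stayed within counting error or 1.5-fold and 56 moved. For T cells, strict classes and the lower minimum chose the same cells, so these 2 alternatives repeat each other there. No ratio past the fold changed sign (0 reversed), while 22 of 326 recomputed log2 ratios, over 10 results with reported ratios within 0.15 of 0, did; that of Jak3 in CD4+ T cells ranged from -0.26 to 0.32. In B cells the log2 ratio of Fcer2a lay between 0.30 and 0.41 and that of Il4ra between 0.31 and 0.44, always above 0. The setting with only Ighd+ B cells, chosen after seeing the data, gave 0.30 for Fcer2a and left 1 gene higher instead of 2 (Il4ra). Thinning to 2000 UMIs also left 1 (Fcer2a), since Il4ra gave 0.31. In these 2 settings 5.93% and 8.27% of all genes were higher. Leaving out barcodes found in both libraries, also chosen after seeing the data, moved no count. Elsewhere the counts rested on genes near the fold. In CD8+ T cells the 1 higher gene (Jak3) became 0 with strict classes (7.64% of all genes higher) and with few interferon UMIs (6.63%). The count was also 0 with a pseudocount of 10 CPM, where only 0.295% of all genes were higher. Few interferon UMIs gave 1 lower (Fcer2a) instead of 0, beside 7.82% of all genes. In CD4+ T cells the 1 lower gene (Socs1) became 0 with strict classes (9.55% of all genes lower) and with thinning (11.9%). The count was also 0 with the pseudocount, where 2.32% of all genes were lower. Thinning gave 2 higher instead of 0, beside 11.4% of all genes. In Cd4-Cd8a- T cells 0 higher became 1 (Il4ra) without doublet removal and with at most 5% mitochondrial UMIs. The same held with strict classes and with the higher minimum. In these settings 10.5% to 11.6% of all genes were higher. Thinning gave 2 higher and 1 lower, beside 12.9% and 10.7% of all genes. In myeloid cells the 1 higher gene (Il4ra) fell under the fold with the higher minimum and with few interferon UMIs. With strict classes and the lower minimum only 2 genes had enough UMIs, and Il4ra was not 1 of them. With thinning and with a minimum of 200 UMIs, 0 genes had enough UMIs in this class, so nothing could be counted. The cause of these moves was not tested. Few cells and UMIs limited the myeloid class, Il13ra1, Jak3 and the small T cell groups. No paired analysis was possible because each condition has 1 library.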

Other observations

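Genes that IL-4 is known to raise in macrophages went in both directions in the myeloid cells. Chil3, a chitinase-like protein of alternatively activated macrophages, had 2642 and 15391 CPM w/o and w/ butyrate, with UMIs in 16 of 36 and 11 of 30 cells. Retnla, encoding the secreted protein RELMα, had 3785 and 1252 CPM, with UMIs in 5 and 6 cells. Arg1, encoding arginase, had 579 and 933 CPM, with UMIs in 5 and 8 cells. A single cell held 48.3% and 23.9% of the Chil3 UMIs, 67.0% and 40.5% of the Retnla UMIs and 65.0% and 25.6% of the Arg1 UMIs, so these sums describe few cells. Mrc1, the mannose receptor, had 212 and 159 CPM. Chil3 UMIs were also found in B cells, 16 and 60 of them with at most 1.67% in any 1 cell w/ butyrate, and the part of free RNA in them was not tested.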
